A study of Mus musculus with 4 samples.

Results

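Some LSD1 sites stand far from any other. In the peak list of differentiating C2C12 cells, 1036 LSD1 peaks on chromosomes 1 to 19 had a midpoint more than 100 kb from the midpoint of every other peak on the chromosome. These isolated peaks made up 2.38% of the 43459 day 2 peaks on those chromosomes (Wilson 95% interval 2.24 to 2.53), out of 44039 in the whole list. The day 5 list held 17446 peaks, and 292 of them overlapped an isolated day 2 peak. The isolated peaks were chosen by day 2 position alone. Their spacing is therefore a description, and their day 2 scores and widths come from the same list and are given as descriptions as well.

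C2C12 is an immortalised line of mouse myoblasts that differentiates into contracting myotubes in low serum. Cells grown in 10% fetal bovine serum were moved to 2% horse serum, at 25 mM glucose in both media, and LSD1 was precipitated with a polyclonal antibody after 48 h (day 2, labelled differentiating) and 120 h (day 5, labelled differentiated). No genetic change is named for either group. Each day had 1 LSD1 library and 1 input library, so there is no replicate error against which to set a difference between days, and p-values are left out. The intervals below cover counting error only and treat peaks as independent. The depth behind the peaks is unknown, since read totals were not analysed here, and the inputs were not used.

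LSD1, the product of Kdm1a, is a flavin-dependent demethylase of histone H3. It has no DNA sequence preference of its own and reaches chromatin with partners such as CoREST, a scaffold that also carries histone deacetylases, or with DNA-binding factors. Removal of methyl groups from lysine 4 of histone H3 silences promoters and enhancers, and in muscle precursors LSD1 has been tied both to the start of the myogenic programme and to the choice of metabolic genes. Binding sites of such cofactors usually gather around active genes, so a site with no neighbour over a long distance is set apart by its surroundings. No gene annotation of mm9, the build of these peaks, was used here, so the sites are named by position and no sequence is shown.

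Most day 2 peaks lay close to another one. Over all 43459 peaks the median distance to the nearest other midpoint was 5.62 kb (quartiles 1.89 to 16.2 kb). Among the isolated peaks it was 147 kb (quartiles 118 to 225 kb), and it reached 2085 kb. The distance exceeded 200 kb for 321 isolated peaks, 500 kb for 75 and 1000 kb for 20. The neighbour on the other side was farther still, at a median of 364 kb (quartiles 205 to 806 kb, n = 1030), and for 199 of these peaks (19.3%) it was over 1000 kb away. The other 6 isolated peaks were the first or last of their chromosome.

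**Figure D1:**
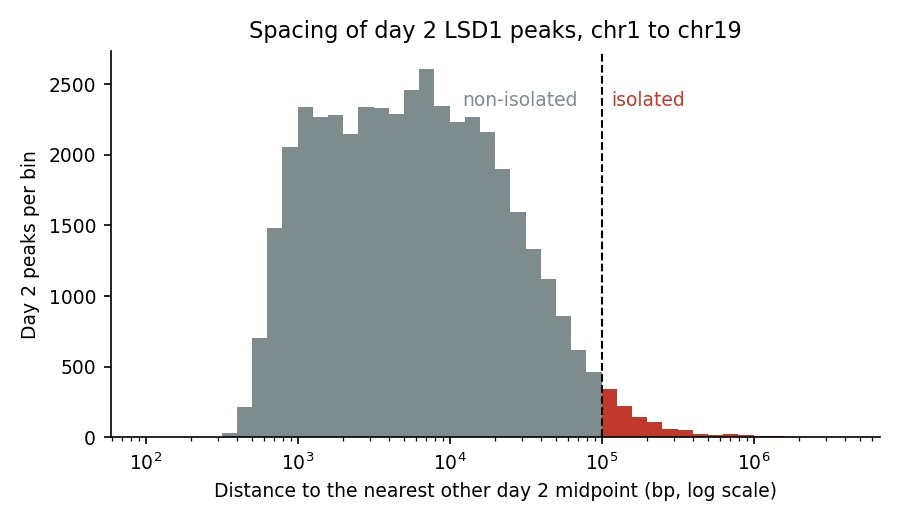
Distance from each day 2 peak on chromosomes 1 to 19 to the nearest other day 2 midpoint (bp, log scale), as the number of peaks per bin. The dashed line marks 100 kb; the 1036 isolated peaks to its right form the thin upper tail of a distribution with a median of 5.62 kb.

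The limit of 100 kb fell in a smooth tail. The peaks just inside it lay on chr2:22750680-22751812 (100.07 kb from the nearest midpoint, score 137), chr18:85020548-85021043 (100.25 kb, score 52.4) and chr13:38401995-38402448 (100.28 kb, score 76.0), and no day 5 peak overlapped any of them. Just outside lay chr14:62754955-62755328 (99.91 kb, score 56.9), chr19:3182867-3183443 (99.83 kb, score 62.3) and chr3:98944600-98945902 (99.76 kb, score 198). The last of these overlapped 2 day 5 peaks and the others none.

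Isolated peaks were found on all 19 chromosomes. They made up the largest share of day 2 peaks on chromosome 3 (81 of 2288, 3.54%, interval 2.86 to 4.38), chromosome 13 (64 of 1882, 3.40%, 2.67 to 4.32) and chromosome 14 (51 of 1522, 3.35%, 2.56 to 4.38). The smallest shares were on chromosome 11 (44 of 3550, 1.24%, 0.925 to 1.66), chromosome 4 (42 of 2769, 1.52%, 1.12 to 2.04) and chromosome 19 (23 of 1388, 1.66%, 1.11 to 2.47). These chromosomes were picked as the ends of this same order. That the intervals of the first 3 and the last 3 do not overlap is therefore a description and not a test. Chromosome 11 also had the densest day 2 peaks, at 29.9 per Mb, and chromosome 14 the sparsest, at 13.2 per Mb, but chromosome 4 had few isolated peaks at a density of 18.2 per Mb. The part of density in the order was not tested.

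Some isolated peaks followed one another. Of the 1036, 551 belonged to 225 runs of at least 2 consecutive isolated peaks, and the other 485 had a non-isolated peak or a chromosome end on each side. Runs of exactly 2 numbered 156, runs of exactly 3 numbered 46, and 23 runs held at least 4. The rule itself favours runs, since the peak next to an isolated one already has a long gap on that side. The number of runs was not compared with a reference, so it is a description.

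The longest run, on chromosome 15, held 7 isolated peaks from 43113550 to 44260401, in 1.15 Mb. Their scores ran from 57.7 to 394, and day 5 peaks overlapped only the first (score 108) and the second (score 112). The strongest of the 7, chr15:44258670-44260401, had no day 5 peak. The next run held 6 peaks on chromosome 1 from 69733055 to 70772671, with scores from 65.6 to 894, and day 5 peaks lay in the first and the last of them.

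The run of 5 peaks on chromosome 10 from 99949607 to 106213090 spanned 6.26 Mb, including a gap of 4960 kb between midpoints. It contained the strongest of all isolated peaks, and 4 of its 5 peaks had a day 5 peak, the exception being the weakest of the run (score 64.1). The run on chromosome 11 from 23794657 to 26494238 had day 5 peaks in 2 of 5, those with scores of 259 and 290, which were the highest of that run. The run on chromosome 9 from 52106497 to 53193006 had a day 5 peak in 1 of 5, again the strongest (score 291). In these 5 runs the strongest peak carried a day 5 peak except on chromosome 15.

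Isolated peaks scored slightly lower and were slightly narrower than the rest. The score is the value the authors' peak caller gave each peak and is used here only within a list. Its median was 93.0 for isolated peaks (95% interval of the median 89.8 to 97.5, quartiles 64.2 to 175) and 105 for the 42423 non-isolated ones (104 to 106, quartiles 68.6 to 190). The median width was 611 bp (590 to 634) against 666 bp (663 to 670). Isolated peaks fell more often into the lowest 4 deciles of score, with 475 of 1036 there (45.8%, 42.8 to 48.9) against 39.9% of non-isolated peaks (39.4 to 40.3). The top decile held 89 of them, 8.59% (7.03 to 10.5), against 10.0% (9.75 to 10.3), so the intervals overlapped.

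Averaged over all score deciles, the widths at like score were not told apart. Score and width went together in both classes, with Spearman's rho of 0.80 across the 1036 isolated and 0.77 across the 42423 non-isolated peaks, which are peaks of 1 library. Within deciles of score the median width of isolated peaks minus that of non-isolated ones averaged -6.97 bp (95% interval -23.8 to 9.83), weighted by the number of isolated peaks. The sign was not uniform. It was negative in 7 of 10 deciles, among them each of the lowest 4 (-16 to -44 bp), where it averaged -32.2 bp. No interval was computed for that average, so a narrower width of weak isolated peaks is neither shown nor excluded. The difference came to 40 bp in the ninth decile and 59 bp in the top one. In the top decile the median isolated peak was 1405 bp wide (1328 to 1509) and the median non-isolated one 1346 bp (1328 to 1363). The intervals of the medians overlapped in all 10 deciles. Peaks of at least 2000 bp numbered 16 of 1036 among the isolated (1.54%, 0.953 to 2.49) and made up 1.53% of the rest (1.41 to 1.65). A day 5 peak overlapped 14 of the 16 (87.5%, 64.0 to 96.5) and 87.2% of the non-isolated peaks of that width (84.4 to 89.5).

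Fewer isolated than non-isolated day 2 sites were also called at day 5. Of the 1036, 256 shared at least 1 bp with a day 5 peak (24.7%, 22.2 to 27.4), against 30.6% of all day 2 peaks on chromosomes 1 to 19. Among non-isolated peaks the share was 30.8% (30.3 to 31.2). A missing day 5 peak says that the caller passed none there, and in a bulk culture fewer cells with LSD1 at a site cannot be told apart from less LSD1 per cell.

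Part of that gap went with score. Isolated peaks with a day 5 peak had a median day 2 score of 221 (198 to 248), whereas for the 780 without one it was 80.5 (77.0 to 83.7). Their widths had medians of 1009 bp (908 to 1091) and 556 bp (535 to 576). When the non-isolated peaks were weighted to the score deciles of the isolated ones, their share was 28.3%. The difference at matched score was -3.59 percentage points (95% interval -5.81 to -1.37), so the interval left out 0. The difference rested on what counts as shared and as isolated. Where overlap had to cover at least 50% of both peaks, 93 isolated peaks (8.98%, 7.38 to 10.9) were shared against 9.7% of all day 2 peaks on these chromosomes, and the matched difference was -0.170 points (-1.88 to 1.54). Most overlapping pairs could not meet that rule, since day 2 peaks were a median of 2.66 times as wide as their partners at isolated sites and 2.59 at others. With isolation set at 50 kb it was -1.37 points (-2.76 to 0.0301). With day 2 peaks limited to scores at or above their median it was -1.87 points (-4.16 to 0.407), and with day 5 peaks so limited -1.70 points (-3.45 to 0.0421). These 4 intervals held 0.

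The isolated share was the lower one in all 10 deciles. In the lowest, 3 of 123 isolated peaks had a day 5 peak (2.44%, 0.833 to 6.93), against 6.11% of non-isolated ones (5.43 to 6.87). In the fifth decile the shares were 16.0% (10.1 to 24.4) and 19.4% (18.2 to 20.6). In the ninth they were 53.7% (43.7 to 63.4) and 61.3% (59.9 to 62.8). In the top decile they were nearly alike, at 85.4% (76.6 to 91.3) and 86.0% (85.0 to 87.1). No single decile kept the intervals apart, so the difference rests on the deciles pooled.

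Grouped into 3 ranges of score, the matched difference was -2.53 points in deciles 1 to 4 (-4.86 to -0.190, 475 isolated peaks) and -4.60 in deciles 5 to 8 (-8.94 to -0.254, 377 peaks). It was -4.26 in deciles 9 to 10 (-10.6 to 2.08, 184 peaks), where the interval held 0.

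**Figure D2:**
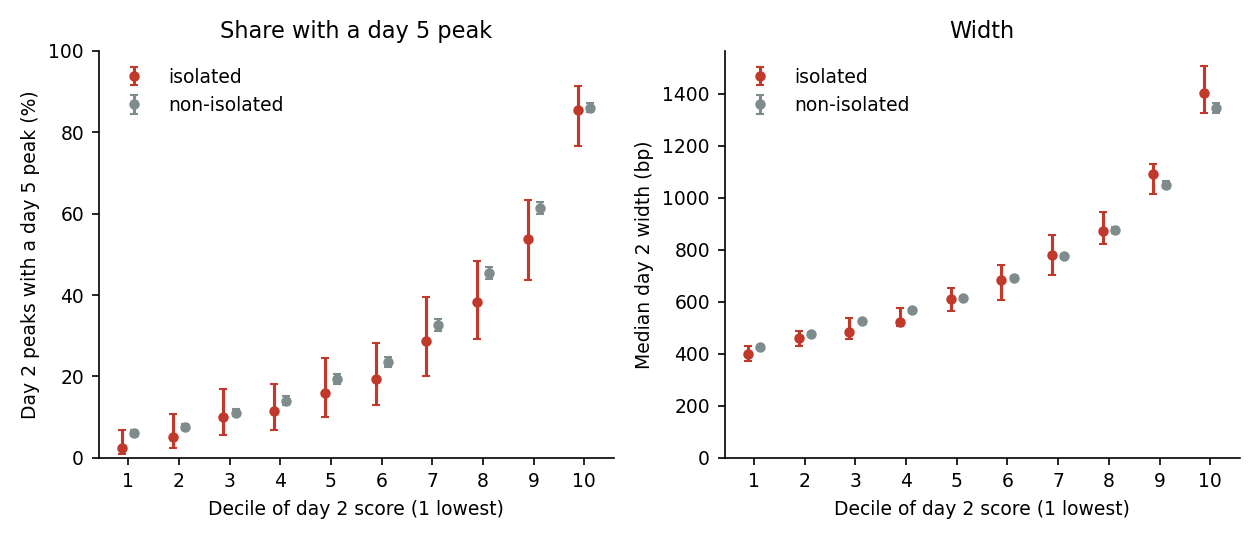
Share of day 2 peaks with a day 5 peak (left, percent, Wilson 95% intervals) and median day 2 width (right, bp, 95% intervals of the median) by decile of day 2 score, for isolated and non-isolated peaks. The isolated share lies below the other in all 10 deciles with overlapping intervals. The median widths of both classes rise with score, with the isolated ones lower in each of the lowest 4 deciles and the intervals overlapping.

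Up to 100 kb, spacing went with no difference whose interval left out 0. All bins of spacing were compared at matched score decile with the other peaks that had a neighbour within 100 kb. For peaks 50 to 100 kb from the nearest other midpoint the share with a day 5 peak was 30.3% (n = 1956), a difference of -0.187 points (-1.93 to 1.55). For the 11399 peaks within 2 kb of another it was 29.9%, a difference of -0.0982 points (-0.936 to 0.740), and the 4 bins between also had intervals that held 0.

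Among the isolated peaks the point estimate was farther from 0 in each more distant bin. At 100 to 200 kb the share was 26.3% (188 of 715) and the difference -2.45 points (-5.15 to 0.257). At 200 to 500 kb the share was 21.1% (52 of 246) and the difference -5.27 points (-9.69 to -0.851). Beyond 500 kb it was 21.3% (16 of 75) and -8.96 points (-14.7 to -3.25). Since some deciles of that last bin held few peaks, its interval was also computed with the spread taken from the reference shares, and it was then -17.6 to -0.348. The intervals of these 3 bins overlap, and that at 100 to 200 kb also overlaps the one at 50 to 100 kb, so neighbouring bins are not shown to differ. The scores did not order in the same way, with medians of 94.0, 88.5 and 106, and across the 1036 peaks Spearman's rho of score and distance was -0.057.

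**Figure D3:**
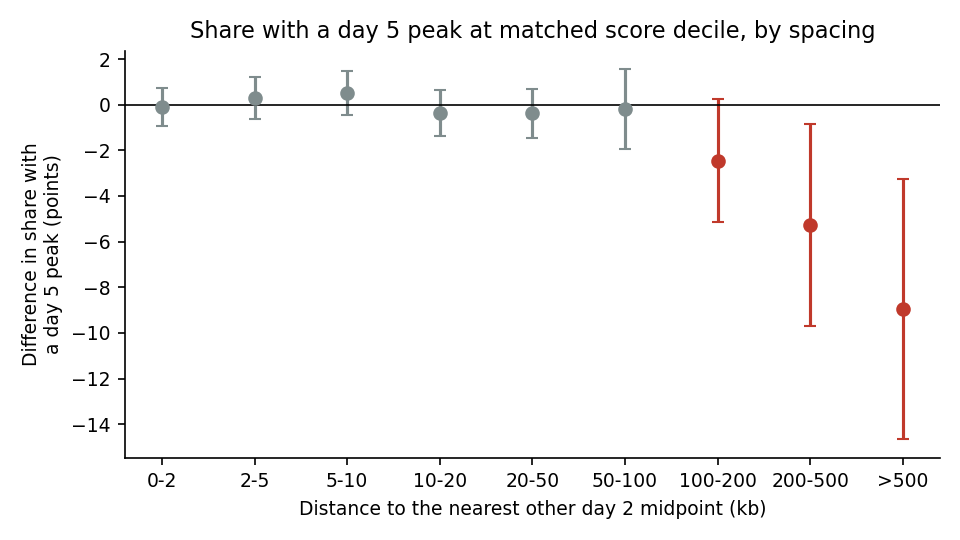
Share with a day 5 peak minus that of other day 2 peaks in the same score deciles (percentage points, 95% intervals), by distance to the nearest other day 2 midpoint (kb). Bins up to 100 kb sit around 0, each with an interval that holds 0, and the 3 bins of isolated peaks lie at -2.45, -5.27 and -8.96.

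Isolated peaks inside and outside runs had nearly the same share. Of the 551 isolated peaks in runs 24.7% had a day 5 peak (21.3 to 28.4), and of the 485 others 24.7% (21.1 to 28.8). At matched score the differences from non-isolated peaks were -4.02 points (-6.91 to -1.14) and -3.10 points (-6.38 to 0.187). By chromosome, with no matching for score, the isolated share was below the non-isolated one on 16 of 19. The exceptions were chromosome 4 (14 of 42, 33.3%, against 29.0%), chromosome 5 (18 of 52, 34.6%, against 30.9%) and chromosome 16 (15 of 39, 38.5%, against 28.8%), each with an interval that held the non-isolated value. The lowest isolated share was on chromosome 13, with 8 of 64 (12.5%, 6.47 to 22.8) against 28.4%.

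The strongest isolated site was chr10:105277416-105278915, with a score of 1896, place 11 among the 43459 day 2 peaks. It lay 266 kb from the peak before it and 935 kb from the one after it. Its day 5 peak, chr10:105277581-105278519, scored 575 and held place 18 of the 17315 day 5 peaks on chromosomes 1 to 19. It was the only isolated peak among the 100 highest day 2 scores, and 24 isolated peaks were among the 1000 highest, a share close to the 2.38% of all day 2 peaks that were isolated.

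All 10 isolated peaks of highest score had a day 5 peak. In the top decile, where scores began at 331, 86.0% of non-isolated peaks also had one, so this is not particular to isolated sites. After the chromosome 10 site came chr16:46496017-46498818, with a score of 1130 and a width of 2802 bp, which held 2 day 5 peaks. The peak chr5:43623569-43626851 scored 1106, was 3283 bp wide and held 3 day 5 peaks, the largest number in an isolated peak. The peak chr9:15297566-15298907 scored 1093 and held 2 day 5 peaks. These 3 sites thus each held more than 1 day 5 peak, the strongest of which scored 148, 154 and 140.

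The peak chr11:29273206-29274457 scored 994 at day 2 and 482 at day 5, 127 kb from its nearest neighbour. The peak chr4:71860029-71863030 scored 961 and 281, and lay 427 kb from the nearest midpoint on one side and 1665 kb on the other. The peak chr17:16355418-16356237 was narrow for its score, at 820 bp with scores of 907 and 276. These 3 sites each held 1 day 5 peak with no other day 5 midpoint within 100 kb.

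The others of the 10 were chr1:38185545-38187351 (scores of 990 at day 2 and 214 at day 5), chr1:69733055-69735074 (894 and 211) and chr5:97425859-97427653 (866 and 172). The day 5 peak of chr3:82161489-82162854, a site with a day 2 score of 865 just below these, scored 412 at place 94 and was the third strongest day 5 partner of an isolated peak. The first 2 were those on chromosomes 10 and 11 described above.

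**Figure D4:**
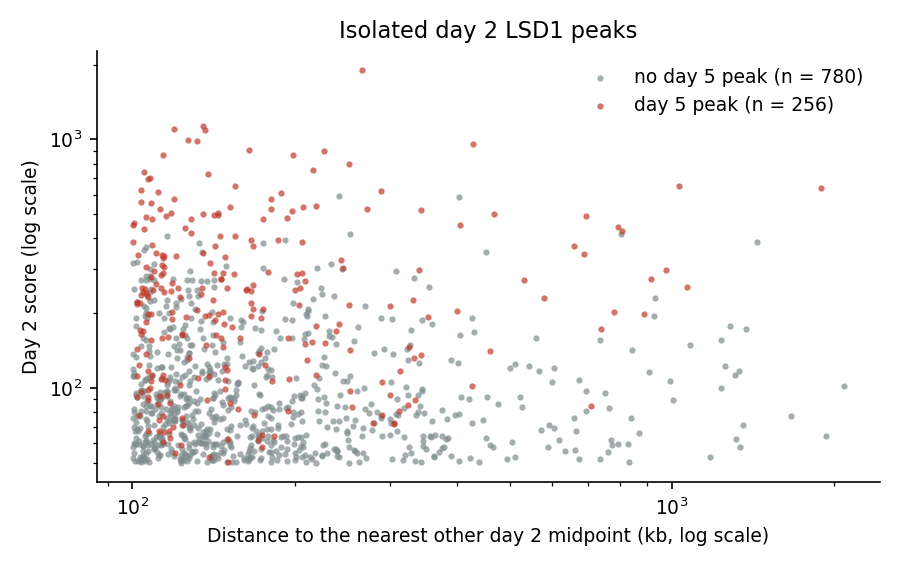
Day 2 score (log scale) of each isolated peak against its distance to the nearest other day 2 midpoint (kb, log scale), by whether a day 5 peak overlaps it (256) or not (780). Day 5 partners gather at high scores, and the strongest peak, at 1896, lies at 266 kb.

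High score and long distance did not always come with a day 5 peak. Of the 89 isolated peaks in the top decile 13 had none. The highest of these were chr12:119539134-119541049 (score 593, place 1029, 1916 bp wide) and chr2:14976103-14977413 (score 588, place 1056, 1311 bp). The nearest day 5 midpoint was 268 kb from the former and 918 kb from the latter. They were followed by chr10:50311641-50313105 (score 418), chr18:7868167-7869654 (415) and chr2:52600537-52602310 (410), with the nearest day 5 midpoint 1353, 258 and 116 kb away.

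The 10 most remote peaks had scores from 57.8 to 641, and 1 of them had a day 5 peak. The most remote was chr3:113332344-113333443, 2085 kb from the next midpoint on one side and 3279 kb on the other, with a score of 102 and a width of 1100 bp. The second was chr7:11080646-11081017 (1927 kb, score 63.9). The third, chr14:115439501-115441799, lay 1885 kb from any other, was strong (score 641, place 828, 2299 bp wide), and met a day 5 peak of 168 bp and score 55.1 at its edge, chr14:115441734-115441901, whose midpoint was 1.17 kb from its own.

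The next in distance were chr8:30041106-30041677 (1658 kb, score 77.0), chr4:73897373-73898718 (1437 kb, score 387) and chr12:58330950-58332265 (1374 kb, score 173). The last 4 of the 10, on chromosomes 14, 14, 9 and 16, had scores from 57.8 to 117 at distances from 1315 to 1357 kb. The peak on chromosome 4 was in the top decile and had no day 5 midpoint within 1290 kb. The peak on chromosome 12 had no overlapping day 5 peak but one with a midpoint 69.2 kb away. Over all 20 isolated peaks more than 1000 kb from any other, 3 had a day 5 peak (15%, 5.24 to 36.0), and the interval held the 30.6% of all day 2 peaks. Non-isolated peaks weighted to their score deciles had 33.1%.

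The widest isolated peak was nearly as wide at day 5. It spanned chr17:39979816-39985821, 6006 bp, and its day 5 peak spanned 39979863 to 39985779, 5917 bp. Its scores were 648 and 127. Whether reads can be placed uniquely there was not analysed, so it need not be a site of LSD1. The next widest were the peaks on chromosomes 5, 4 and 16 described above and chr1:57028201-57030853 (2653 bp, score 796), which met a single day 5 peak of 337 bp and score 71.8, at place 8753.

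Where a day 5 peak was present, it lay within the isolated day 2 peak much as at other sites. The 256 peaks formed 292 pairs with day 5 peaks. The day 5 peak was wholly inside in 256 of the 292 pairs (87.7%, 83.4 to 91.0), against 88.4% of 14693 pairs at non-isolated sites (87.9 to 88.9). Day 2 peaks were a median of 2.66 times as wide as their partners (2.34 to 2.88) against 2.59 (2.56 to 2.62), and the median distance between midpoints was 120 bp (105 to 147) against 124 bp (121 to 127). The median day 5 width was 350 bp (321 to 367) against 351 bp (348 to 354). On each of these measures the interval at isolated sites held the value at the others. It did not for the day 2 width in these pairs, which had a median of 1070 bp (976 to 1117) against 971 bp (962 to 981).

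The day 5 peak was the wider one in 4 of the 292 pairs, against 112 of 14693 pairs at non-isolated sites. At chr4:16666845-16667320 a day 2 peak of 476 bp and score 61.9 met a day 5 peak of 491 bp and score 120. The others were chr8:117197145-117197771 (627 and 671 bp), chr16:36469032-36469520 (489 and 550 bp) and chr19:38470312-38470821 (510 and 543 bp). All 4 were sites of modest width.

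Most isolated peaks with a day 5 peak held a single one. There were 221 with exactly 1, 34 with 2 and 1 with 3. Those with 2 or more were 35 of 1036, or 3.38% (2.44 to 4.66), against 3.49% of all day 2 peaks on these chromosomes. Day 5 peaks at isolated sites had a median score of 80.4 (71.8 to 87.1) and ran from 50.4 to 575, against a median of 77 (76.5 to 77.5) at non-isolated sites. In the top decile of day 2 score the strongest day 5 peak of a site had a median score of 139 at the 76 isolated sites (109 to 158) and 124 at the 3663 others (121 to 127), with day 2 medians of 503 (478 to 539) and 467 (463 to 474). In the ninth decile the day 5 medians were 77.5 (71.3 to 90.6) and 83.8 (82.4 to 86.0). Spearman's rho of the day 2 score and the strongest day 5 score was 0.53 over 256 isolated and 0.52 over 13050 non-isolated sites.

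**Figure D5:**
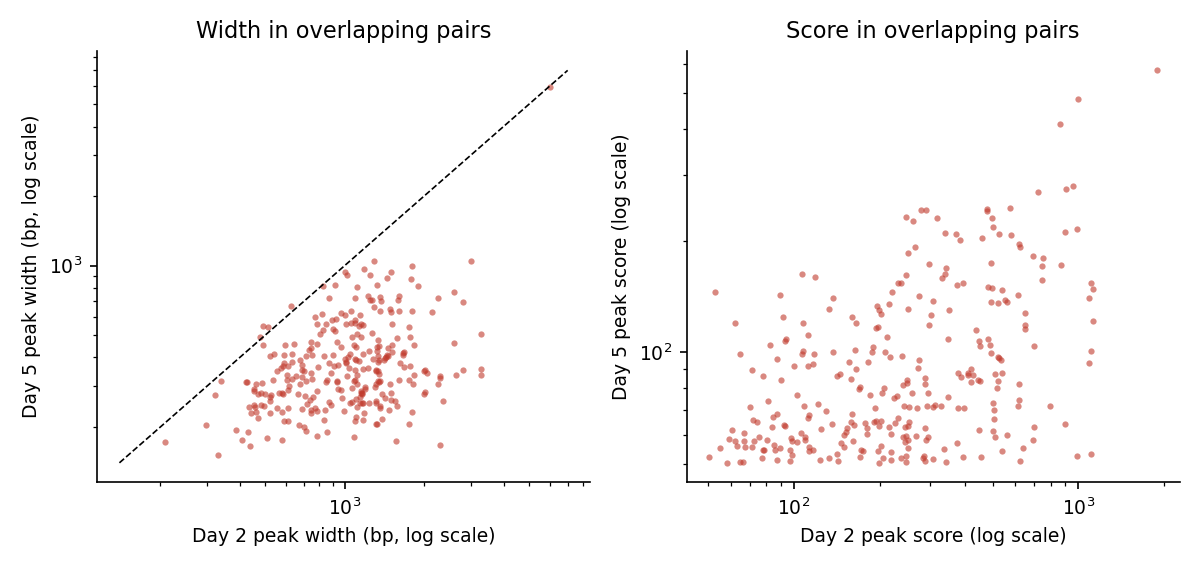
Widths (left, bp) and scores (right) of the day 2 and day 5 peaks in the 292 overlapping pairs at isolated sites, on log scales, with a dashed line at equal width. The day 5 peak was wider in 4 pairs, and the pair near the line at the upper right is the peak of 6006 bp on chromosome 17; the scores of separate peak calls need not share a scale.

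Isolation at day 2 went with an empty neighbourhood at day 5. For 720 of the 1036 peaks (69.5%, 66.6 to 72.2) no day 5 midpoint lay within 100 kb, against 8.94% of all day 2 peaks on these chromosomes. The day 2 rule selects sparse regions and the lists overlap, so nothing is read from that contrast. Of the 256 with a day 5 peak, 194 had 1 overlapping day 5 peak and no other day 5 midpoint within 100 kb, so that they were lone sites on both days, and 30 had 2 or more overlapping peaks and no other.

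In the remaining 32 (12.5%, 8.995 to 17.1) another day 5 peak lay within 100 kb. Of the 780 isolated peaks without an overlapping day 5 peak, 60 (7.69%, 6.02 to 9.78) had a day 5 peak within 100 kb. These neighbouring day 5 peaks numbered 97. None of them overlapped a day 2 peak, which the rule itself nearly fixed. Their scores had a median of 57.9 (54.5 to 60.4) and a highest value of 119. They are part of the 2390 day 5 peaks on these chromosomes with no day 2 peak. The median of the 2390 was 57.2 (56.6 to 57.7), which lies in the interval of the 97.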

How the data were processed

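ChIP-seq for LSD1 was done on C2C12 cultures after 48 and 120 h of differentiation. The authors deposited 1 peak list per LSD1 library, with the peak score as the caller gave it; its scale is not stated, and the lowest was 50 in both lists. The caller was MACS in Galaxy, per the file headers. Bowtie2, deepTools and mm9 are named in the submitters' processing notes. The version, cutoff and control of the caller were not given in the sources used here. Peak number, width and overlap depend on these and on read depth.

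Starts are printed counted from 1. Nearest midpoints, overlaps (at least 1 bp), score deciles over the 43459 day 2 peaks on chromosomes 1 to 19 (ties shared), Wilson intervals, order-statistic intervals of medians and decile differences weighted by isolated peaks were computed with pandas 2.3.3, NumPy 2.4.6 and SciPy 1.17.1 under Python 3.11.15, drawn with Matplotlib 3.10.9, and tested on simulated data. Intervals of weighted differences came from binomial variances or interval widths. Groups followed the titles. Members and comparisons were chosen with earlier results of these data known. Named sites were the 10 of highest score, the 10 most remote, the 5 widest, the 5 strongest without a day 5 peak, the 5 of highest day 5 score, the 5 longest runs (by number of peaks, ties by length, which left out 1 further run of 5), the 3 on each side of the limit, and the 3 chromosomes at each end by isolated share. The 4 pairs wider at day 5 and the chromosomes named for their day 5 share were added after their values were seen. Alternatives varied distance, list, overlap, matching and chromosomes.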

Additional observations from a re-analysis of the deposited data

Results flagged for a closer look

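Chromosome X was outside the comparison above. It held 547 day 2 peaks, of which 85 were isolated by the same limit (15.5%, Wilson interval 12.7 to 18.8). A day 5 peak overlapped 14 of the 85 (16.5%, 10.1 to 25.8) and 67 of the 462 non-isolated ones (14.5%, 11.6 to 18.0). The intervals overlap, and the count is given because these peaks were in no comparison and their overlap exceeds what a count of 0 would allow (3.53%), which says nothing about isolation. The isolated peaks on chromosome X had a median score of 75.01 (69.7 to 91.2).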

How the results depend on the processing

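Of 67 recomputed values, 48 stayed within the interval of the reported one (counts within 1.5 times), 17 moved and 2 changed sign. The share difference at matched score was below 0 in all 31 of its alternatives and its interval was below 0 in 27. Most of the 31 left out a single chromosome each, so they reused nearly all the same peaks. The intervals that held 0 all came from alternatives of distance, list or overlap. Leaving out each chromosome in turn moved the difference between -4.05 and -3.07. With isolation above 50 kb there were 2992 peaks with a median score of 99.8, 28.3% had a day 5 peak, the difference was -1.37 points with an interval up to 0.0301, and 41.8% had no day 5 midpoint within 100 kb. Above 200 kb there were 321 peaks, and these values were 21.2%, -6.09 points and 73.2%. With the day 2 list restricted to peaks at or above the median score, isolation was found anew and 1540 peaks were isolated. They are not the stronger part of the 1036, since weaker neighbours were no longer counted. Their median score was 188 and their median width 905 bp, 47.7% had a day 5 peak, and 38.3% had none within 100 kb. The share difference was -1.87 points with an interval up to 0.407. The width difference averaged over deciles then turned to 16.9 bp, and in 50 score bins to 0.637 bp, so that average has no stable sign. With overlap over at least 50% of both peaks 8.98% were shared, against 9.7% of all day 2 peaks, and the difference was -0.170 points (-1.88 to 1.54). The difference was thus not seen under that rule, which most overlapping pairs could not meet because the day 5 peak was too narrow. With edges up to 1 kb apart it was -8.66 points. Under that setting non-isolated peaks can meet a neighbour's day 5 peak by construction, and how many did was not counted. With day 5 peaks at or above their median score 14.5% were shared and the difference was -1.70 points with an interval up to 0.0421. What caused the shifts was not tested. Removing peaks wider than 5 kb, removing the ends of chromosomes and leaving out each chromosome other than 15 were chosen after seeing the data. No paired analysis was possible because each group had 1 library.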

Other observations

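Isolation was more common in the shorter day 5 list. By the same limit 1592 of 17315 day 5 peaks on chromosomes 1 to 19 were isolated (9.19%, 8.77 to 9.63). Of these, 194 overlapped an isolated day 2 peak, 1061 a non-isolated one and 337 no day 2 peak. Among all 17315 day 5 peaks, 2390 overlapped no day 2 peak. A shorter list leaves more peaks isolated by construction.

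Some day 5 peaks stood where day 2 had nothing nearby. The midpoints of 100 day 5 peaks were more than 100 kb from every day 2 midpoint. Their median score was 56.3 (54.5 to 58.2). The highest, chr17:72952367-72952851, scored 159 at place 1652 and lay 155 kb from the nearest day 2 midpoint.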
